A study of Nothobranchius furzeri with 20 samples.

Results

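A set of 224 genes was lower in killifish liver at 1% of the rotenone LC50 than in 9-week fish at 0.1% or 10%. This held for 9-week and for 27-week fish at 1%, but the comparison of the 27-week fish also crosses age. The genes were chosen by their levels: a gene belonged to the set when its highest value among the 10 libraries at 1% lay below its lowest value among the 10 libraries at 0.1% and 10%, when the medians of the 27-week and 9-week 1% groups were less than 1 apart on the log2 scale, and when its largest group median reached 1 CPM (counts scaled to one common library total, with TMM factors). Values were log2(CPM + 0.5). Of 16516 genes tested, 232 (1.4%) met the first condition, 224 of these met the second, and the same 224 met the third. The set is thus 1.36% of the genes tested. Applying the conditions to all 26739 genes of the tables with the same scaling factors gave 224 genes again. With TMM factors from all genes they gave 220 genes, 211 of them of the set. Because these conditions used the difference between 1% and the other doses in all 20 libraries, that difference is described below with its size and standard error and was given no test.

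The data were RNA sequencing counts from livers of male turquoise killifish, Nothobranchius furzeri, of the strain MZM-04/10p, with libraries made from total RNA. The groups of 5 libraries were 27-week fish given rotenone at 1% of the LC50, 9-week fish at 1%, 9-week fish at 0.1% and 9-week fish at 10%. All of these groups were exposed to rotenone. Untreated fish were not analysed here, and the 27-week libraries analysed here were all at 1%. The 0.1% libraries stood in a deposited table of their own, so dose and table cannot be told apart for them, while both 1% groups and the 10% group shared a table. Separate fish are not stated for the libraries of a group, and p-values therefore measure only the spread between these libraries, which may be technical.

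Rotenone blocks complex I of the mitochondrial respiratory chain, the enzyme that passes electrons from NADH to ubiquinone. Hepatocytes, the main cells of the liver, carry many mitochondria and use them for fatty acid oxidation, urea and glucose metabolism and the handling of foreign compounds. The LC50 is the concentration at which an exposed animal is as likely to die as to survive. The turquoise killifish is an annual fish with a very short natural lifespan and is used for that reason in the study of ageing.

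The identifiers of all genes have the form Nfu_g_1 followed by a number, without names beside them in the tables. None of them occurs in the RefSeq gene table of the assembly NfurGRZ-RIMD1. The set therefore cannot be ordered by function, the tissue label could not be checked against liver markers, no sequence is shown, and markers of blood, pancreas or immune cells were not examined. In bulk liver, fewer cells of a type and less RNA per cell cannot be told apart for any of these genes.

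Library totals, in units of 1000000 counts, lay between 23.5 and 33.9, and the group medians were 25.02 for 27-week fish at 1%, 25.5 for 9-week fish at 1%, 27.3 for the 0.1% group and 27.9 for the 10% group. Replicate 5 of the 9-week 1% group stood apart: its scaling factor of 0.652 was the lowest of all libraries, the others of its group lying between 0.925 and 1.15, and it held the fewest detected genes (18665). Replicate 4 of the 0.1% group had the highest scaling factor of all libraries, 1.37, the others of its group lying between 0.805 and 1.04. The 100 most abundant genes took 41.7% to 49.2% of counts at 27 weeks and 1%, 45.5% to 53.7% at 9 weeks and 1%, 40.6% to 55.9% at 0.1% and 52.2% to 55.0% at 10%. This share overlapped between the 1% and 0.1% groups but lay higher in every 10% library than in every 27-week library, and its part in the results was not tested.

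As a group, the 224 genes held 0.606% ± 0.056 of all counts at 27 weeks and 1% and 0.468% ± 0.206 at 9 weeks and 1%, against 1.48% ± 0.26 at 0.1% and 1.20% ± 0.09 at 10% (SD, n = 5 each). The highest share in any 1% library was 0.766%, in replicate 3 at 9 weeks, and the lowest share in any other library was 1.08%, in replicate 1 at 10%. The most abundant gene of the set did not carry this alone: without it the share was 0.498% ± 0.055 at 27 weeks and 0.396% ± 0.153 at 9 weeks in the 1% groups, against 1.24% ± 0.26 at 0.1% and 1.01% ± 0.09 at 10%. The median gene of the set stood at 9.20 CPM in the 27-week and at 9.03 CPM in the 9-week fish at 1%, against 21.0 CPM at 0.1% and 20.6 CPM at 10%. Over all genes tested the corresponding medians were 6.94, 6.91, 6.65 and 6.84 CPM. At 9 weeks 1% lay below both of its neighbours. Within the table that held both ages at 1% and the 10% group, the shares of 0.606% and 0.468% stood against 1.20%. Both orders follow largely from the choice of genes.

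**Figure D1:**
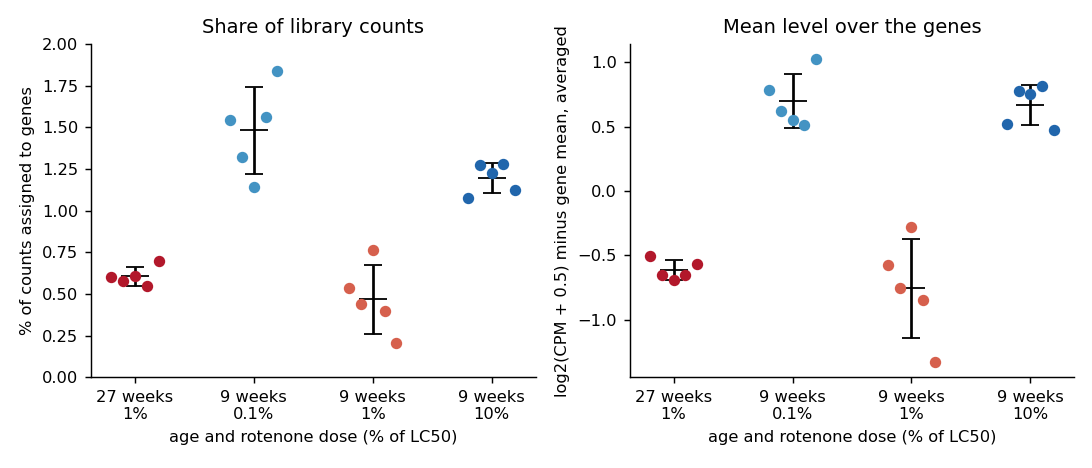
Share of counts held by the 224 genes (left, % of all counts assigned to genes) and their mean level relative to each gene's own mean over 20 libraries (right, log2 scale), by age and rotenone dose. Points are libraries, and lines and bars are mean ± SD (n = 5 per group). The 10 libraries at 1% reach at most 0.766% of counts while the 10 others start at 1.08%. This separation follows largely from the choice of genes.

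The fitted log2 difference of both 1% groups from the mean of 0.1% and 10% had a median of -1.25 over the set, which corresponds to 42.0% of the level at the other doses. The median over all genes tested was -0.03. The quartiles of the set were -1.85 and -0.90, and the median standard error of a gene's difference was 0.19. Differences ran from -4.25 to -0.39, so the set mixed deep with shallow ones. Of the 224 genes, 76 were less than 2-fold lower, 105 were 2-fold to under 4-fold lower, 35 were 4-fold to under 8-fold lower and 8 were 8-fold lower or more. The size of the difference was almost unrelated to the gene's mean level (Spearman's rho 0.06 across the 224 genes, which are not independent replicates) and slightly smaller for longer genes (rho 0.21).

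The ages can be set side by side, although both comparisons use the same 0.1% and 10% libraries of 9-week fish. For the 27-week group, dose and age cannot be told apart in this comparison. For the 27-week 1% libraries the median log2 difference from the 9-week libraries at the other doses was -1.22 (quartiles -1.77 and -0.85). Of the set, 148 genes were 2-fold or more lower and 42 genes 4-fold or more lower. At 9 weeks it was -1.26 (quartiles -1.95 and -0.91), with 153 and 49 genes. The fitted difference was larger at 27 weeks for 93 genes and larger at 9 weeks for 131. Both differences are taken from the same libraries, so this split is that of 27 against 9 weeks at 1%. The conditions put both 1% groups below the same libraries with medians less than 1 apart. Similar values at the ages therefore follow largely from the choice of genes. Taken alone, the 27-week libraries at 1% lay below all 10 libraries at the other doses for 635 of the 16516 genes (3.84%), and the 9-week libraries at 1% did so for 485 (2.94%). The 232 genes common to both lists are those that meet the first condition of the set.

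**Figure D2:**
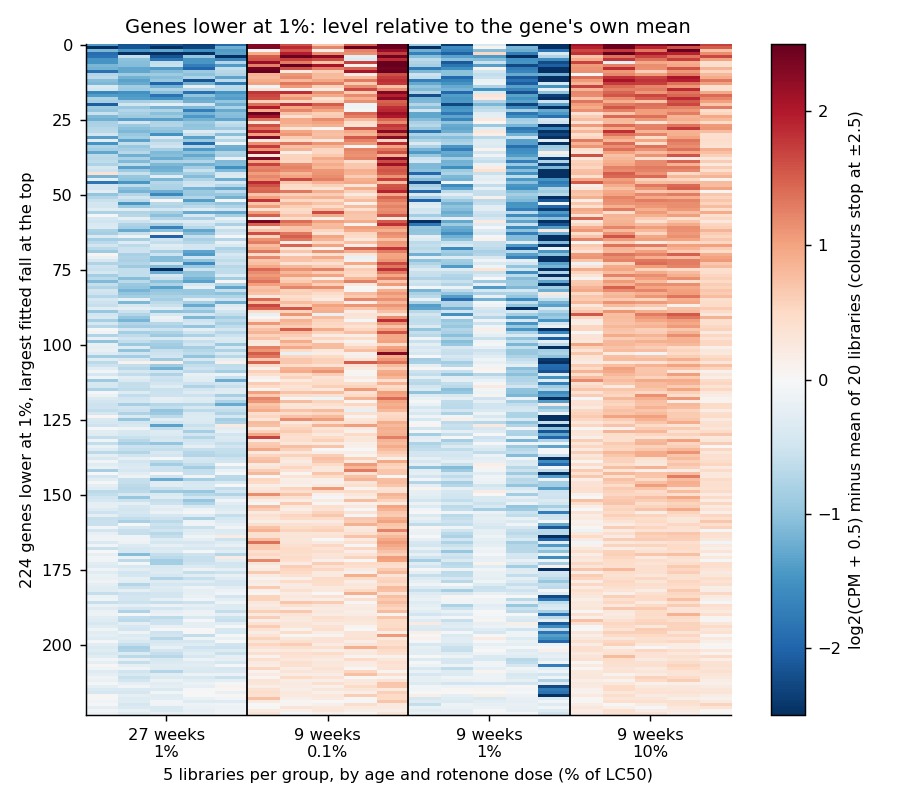
Level of each of the 224 genes (rows, largest fitted difference at the top) in the 20 libraries (columns, 5 per group), as log2(CPM + 0.5) minus the gene's mean over the 20 libraries. Blue marks levels below and red above that mean; both 1% groups are blue in nearly all rows, with replicate 5 (last column) darkest and replicate 3 (middle column) palest in the 9-week 1% group.

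Nfu_g_1_020244 had the largest fitted difference. It stood at 3.16, 1.67, 1.64, 1.43 and 2.05 CPM in the 27-week 1% libraries and at 4.68, 1.37, 6.93, 0.623 and 0.181 CPM in the 9-week 1% libraries, against 47.4, 28.7, 15.28, 26.9 and 99.1 CPM at 0.1% and 41.0, 54.9, 47.6, 59.8 and 31.2 CPM at 10%. On the log scale the 9-week 1% libraries were the most scattered, replicates 2, 4 and 5 lying below all 27-week libraries and replicates 1 and 3 above them. The means at 1% were 1.99 ± 0.69 CPM in 27-week fish and 2.76 ± 2.92 CPM in 9-week fish, against 43.5 ± 33.2 CPM at 0.1% and 46.9 ± 11.34 CPM at 10% (SD, n = 5 each), with a log2 difference of -4.25 ± 0.48 (SE). The lowest value, in replicate 5 at 9 weeks and 1%, rested on 3 counts, while the lowest count at the other doses was 354.

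Nfu_g_1_008662 was next. It stood at 2.12, 3.08, 1.11, 2.76 and 6.303 CPM in the 27-week 1% libraries and at 2.31, 4.96, 16.4, 6.75 and 0.544 CPM in the 9-week 1% libraries, against 79.3, 58.0, 36.6, 87.3 and 141 CPM at 0.1% and 59.7, 103, 59.0, 47.5 and 45.3 CPM at 10%. Replicate 3 at 9 weeks and 1% was the highest of the 10 libraries at 1% and still lay below the lowest library at 0.1%. The log2 difference of 1% from the other doses was -4.02 ± 0.46 (SE).

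**Figure D3:**
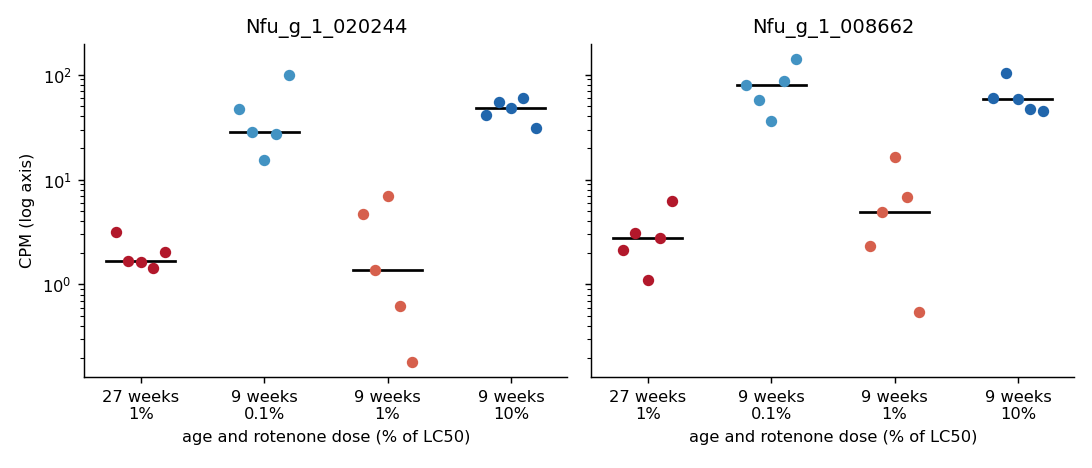
CPM on a log axis of the 2 genes with the largest fitted difference, Nfu_g_1_020244 and Nfu_g_1_008662, in each library by age and rotenone dose. Points are libraries and lines are group medians (n = 5 per group); no library at 1% exceeds 6.93 CPM for Nfu_g_1_020244 or 16.4 CPM for Nfu_g_1_008662, while the other libraries start at 15.28 and 36.6 CPM.

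The set covered a wide range of abundance. The largest group median was 1 to under 10 CPM for 50 genes, 10 to under 100 CPM for 149, 100 to under 1000 CPM for 22, and 1000 CPM or more for 3. Of the 100 most abundant genes tested, 1 belonged to the set, which makes up 1.36% of all genes tested. Of the 224 genes, 15 had a median under 1 CPM at 27 weeks and 1%, 13 had one at 9 weeks and 1%, and 11 had one in both, while at 0.1% and at 10% there were 0 such genes. At 0.1% and 10% every gene had at least 21 counts in every library. At 1%, 30 genes had under 10 counts in at least 1 library, and 2 of these had 0 counts in a library. The median standard error of the log2 difference between 1% and the other doses was 0.31 for these 30 genes and 0.17 for the other 194. The conditions put every gene lower at 1%, so the low levels and counts found at 1% alone follow largely from the choice of genes.

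Gene lengths, recovered from the deposited tables, were available for all 224 genes and for 14692 of the 16516 tested. The set had a median length of 3390 bases (quartiles 1637 and 5505), against 2786 bases (1413 and 4770) over the genes tested that had a length. Per kilobase, the median level of the set was 5.05 CPM, against 3.70 CPM over these tested genes. The set had to reach 1 CPM in some group, a condition not set for the other genes tested. Without that condition the same 224 genes were chosen, and the reason for the higher level was not tested.

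The members highest per kilobase showed how the separation looked at high counts. The first, of 1218 bases, averaged 995 ± 150.2 CPM in 27-week and 675 ± 466 CPM in 9-week fish at 1%, while the means were 2463 ± 673 CPM at 0.1% and 1918 ± 91 CPM at 10% (SD, n = 5 each), with a log2 difference of -1.41 ± 0.26 (SE). Within the 9-week 1% group it ranged from 142 to 1402 CPM, while at 10% it stayed between 1807 and 2031 CPM. The second, of 945 bases, averaged 645 ± 84 CPM in 27-week and 403 ± 217 CPM in 9-week fish at 1%, while the means were 1794 ± 479.6 CPM at 0.1% and 1172 ± 149 CPM at 10%, with a log2 difference of -1.51 ± 0.23 (SE). The third, of 1551 bases, averaged 462 ± 42 CPM in 27-week and 317 ± 187 CPM in 9-week fish at 1%, while the means were 1217 ± 373 CPM at 0.1% and 1349 ± 250.3 CPM at 10%, with a log2 difference of -1.74 ± 0.32 (SE). In all 3 genes the 9-week 1% libraries were more scattered than the 27-week ones.

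How far the 1% libraries stood from the others also varied. The distance between the highest library at 1% and the lowest library at the other doses had a median of 0.20 on the log2 scale and ranged from under 0.01 to 1.32. It was under 0.1 for 66 genes, whose median log2 difference between 1% and the other doses was -0.91, and 0.5 or more for 39 genes, whose median difference was -2.19. The gene with the widest distance stood between 1.68 and 2.96 CPM in 27-week and between 0.181 and 3.26 CPM in 9-week fish at 1%, against 8.86 to 17.7 CPM at 0.1% and 9.79 to 21.9 CPM at 10%. The gene with the smallest fitted difference, -0.39 ± 0.09 (SE), averaged 18.2 ± 1.0 and 18.1 ± 2.2 CPM in the 27-week and 9-week 1% groups, against 23.1 ± 2.5 CPM at 0.1% and 24.2 ± 2.4 CPM at 10%. Its replicates were tight, with at most 2.52 CPM of standard deviation in any group.

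At the edge of the set, the gene just inside the first condition had a highest value of 340.7 CPM at 1% and a lowest value of 341.5 CPM at the other doses, and the gene just outside it had 1.209 and 1.208 CPM. A further 119 genes missed separation by less than 0.1 on the log2 scale. The limit on the difference between the ages lay between a gene with 27-week and 9-week medians 0.98 apart and one with medians 1.03 apart. It left out 8 genes that met the first condition, all 8 with the higher median at 27 weeks. The lowest largest group median in the set was 1.44 CPM, so the minimum of 1 CPM left out 0 genes.

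A few libraries set the boundary for many of the genes. Among the libraries at 1%, replicate 3 at 9 weeks was the highest for 87 of the 224 genes, replicate 1 at 27 weeks for 33 and replicate 1 at 9 weeks for 30. Among the others, replicate 4 at 0.1% was the lowest for 55 genes, replicate 1 at 10% for 41 and replicate 5 at 10% for 32. Replicate 5 at 9 weeks and 1% was the lowest of the libraries at 1% for 111 genes, and replicate 5 at 0.1% was the highest of the libraries at the other doses for 79. The same conditions were then applied without one library at a time. Between 225 and 305 genes met them, and between 214 and 224 of these belonged to the set. Leaving out a library can only keep or add genes, apart from changes in filter, scaling and medians, so these counts are no test. The list grew most without replicate 4 at 0.1%, to 305 genes including all 224, and without replicate 5 at 9 weeks and 1%, to 287 genes including 215 of the set. Members made up 73.4% of the first of these lists and 74.9% of the second.

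**Figure D4:**
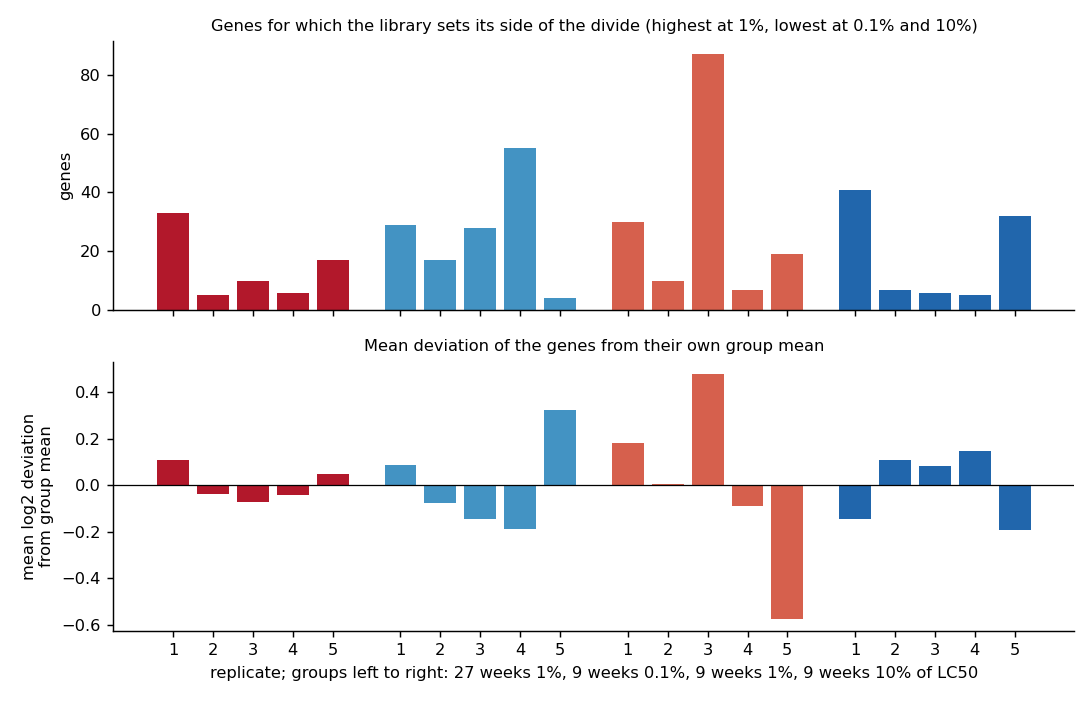
For each library, the number of the 224 genes for which it was the highest at 1% or the lowest at 0.1% and 10% (top, genes), and the mean deviation of the 224 genes from their own group mean (bottom, log2 scale). Replicate 3 at 9 weeks and 1% bounds 87 genes and deviates upward by 0.48, and replicate 5 of that group deviates downward by 0.57.

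Within groups, the deviations of the genes from library to library are given as a description, since the genes were chosen for a shared direction in these same libraries. After each gene's group means were removed, the mean pairwise correlation of the genes over the 20 libraries was 0.27. Over all genes tested, which were not chosen for one direction, it was 0.001. Of the 224 genes, 138 correlated at 0.5 or more with the mean of the others and 11 correlated below 0. No such count was made for all genes tested. Without replicate 5 at 9 weeks and 1% the mean pairwise correlation was 0.27 again, and 129 genes reached 0.5. The shared deviation was largest in the 9-week 1% group, where the mean of the set lay 0.48 above the group mean in replicate 3, 0.18 above in replicate 1 and 0.57 below in replicate 5. At 27 weeks and 1% the libraries lay between 0.07 below and 0.11 above their mean, at 0.1% between 0.19 below and 0.33 above, and at 10% between 0.19 below and 0.15 above. These correlations describe genes measured in the same libraries with the same scaling factors.

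In the mirrored direction, 481 genes (2.91%) lay higher in every library at 1% than in all others. The 476 of them that met the other conditions were chosen from the same library values for the opposite direction and had a mean pairwise correlation of 0.34 within groups. In 15 of the 20 libraries their mean deviation had the opposite sign to that of the genes lower at 1%. In replicate 3 at 9 weeks and 1%, for example, the genes lower at 1% lay 0.48 above their group mean and the genes higher at 1% lay 0.39 below theirs. In replicate 5 of that group the lower genes lay 0.57 below their mean and the higher genes 0.35 above theirs. The mirrored genes had a median level of 14.8 CPM, against 14.9 CPM for the genes lower at 1%. Per kilobase, where a length was recovered, the medians were 6.51 and 5.05 CPM. The median log2 difference of the mirrored genes was 1.22.

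The 138 genes that correlated at 0.5 or more with the mean of the others can be set beside the remaining 86. Their median log2 difference between 1% and the other doses was -1.29, against -1.16 for the 86, their median level was 17.5 CPM against 13.26 CPM, and their median length was 3388 bases against 3440 bases. Their median log2 difference of 10% from 0.1% was -0.05, against 0.04 for the 86, and that of 27 from 9 weeks at 1% was 0.11, against -0.08. Libraries of one group also differed less for the set than for genes in general. The median standard deviation of log2(CPM + 0.5) was 0.22 at 27 weeks and 1% for the set (0.26 for all genes tested), 0.49 at 9 weeks and 1% (0.51), 0.32 at 0.1% (0.37) and 0.23 at 10% (0.26). Without replicate 5 the value at 9 weeks and 1% was 0.31 (0.33). A small spread helps a gene to meet the first condition, so the lower values are no separate finding.

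The conditions did not fix how the set differs between 10% and 0.1%, the doses on either side of 1%, beyond requiring both to be high. A small spread helps a gene to meet the first condition, so the counts below are not free of the choice of genes. Of the 224 genes, 0 differed between 10% and 0.1% at an adjusted p under 0.05 in edgeR's quasi-likelihood test, where 8 of 16516 genes (0.0484%) did. At an unadjusted p under 0.05 there were 19 of the 224 (8.48%), 5 higher and 14 lower at 10%. Over all genes tested the share was 6.53%, with 312 genes higher and 767 lower. DESeq2 called 0 of the 224, against 139 of all genes (0.845%), and limma voom called 0 of the 224, against 5 of all genes (0.0303%). Leaving out one library moved edgeR's count over all genes to between 3, without replicate 1 or replicate 4 at 10%, and 37, without replicate 2 at 0.1%, with 0 of the 224 called each time. The shares of the set were close to these backgrounds. The median log2 difference of 10% from 0.1% was -0.02 over the set and -0.03 over all genes tested. At 10%, 107 genes of the set were higher and 117 lower, against 7641 and 8875 of all genes tested. Of the set, 194 genes (86.6%) differed by less than 0.5, against 81.1% of all genes tested. With a median standard error of 0.26, differences under 0.5 in single genes were hardly detectable, so the result does not show that the doses were alike.

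The largest differences between 10% and 0.1% in the set came from genes with scattered libraries. Nfu_g_1_018970 stood at 111, 108, 76.9, 108 and 73.1 CPM at 10%, against 450, 58.8, 77.2, 211 and 415 CPM at 0.1%. Replicates 1, 4 and 5 at 0.1% lay above all libraries at 10% and replicate 2 lay below them, and the log2 difference of -1.35 ± 0.50 (SE) did not pass (edgeR adjusted p = 0.537). Nfu_g_1_006802 stood at 4.61, 6.98, 5.17, 4.39 and 4.63 CPM at 10%, against 20.5, 5.82, 7.64, 9.20 and 19.7 CPM at 0.1%, with a log2 difference of -1.29 ± 0.42 (SE; edgeR adjusted p = 0.371). The ranges of the groups overlapped in both genes.

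In the other direction, Nfu_g_1_020569 stood at 37.7, 21.5, 31.7, 37.2 and 15.34 CPM at 10%, against 10.9, 27.3, 11.1, 16.2 and 16.1 CPM at 0.1%, with a log2 difference of 0.82 ± 0.28 (SE; edgeR adjusted p = 0.453). Nfu_g_1_015096 stood at 7.26, 7.80, 5.59, 21.5 and 3.54 CPM at 10%, against 2.04, 6.80, 2.24, 5.25 and 10.7 CPM at 0.1%, with a log2 difference of 0.75 ± 0.47 (SE; edgeR adjusted p = 0.917). This difference rested largely on replicate 4 at 10%, without which it was 0.14. Nfu_g_1_015096 was low at 1%, with 0.448 ± 0.103 CPM at 27 weeks and 0.444 ± 0.207 CPM at 9 weeks (SD, n = 5 each). Across the set, the range at 10% lay wholly above that at 0.1% for 1 gene (0.446% of the set, 0.708% of all genes tested) and wholly below it for 2 (0.893%, against 1.6%).

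The conditions bear on the difference between the 27-week and 9-week groups at 1%. Both groups had to lie below the same libraries, with medians less than 1 apart. Of the 232 genes that met the first condition, the limit on the medians left out 8. Nothing is read from how few of the genes differed between the ages. The median log2 difference of 27 from 9 weeks was 0.04 over the set, with 131 genes higher and 93 lower at 27 weeks. This is the split already given above and no second result. Over all genes tested it was -0.04, with 7805 genes higher and 8711 lower. In edgeR 0 of 224 genes passed, against 342 of 16516 genes (2.07%). At an unadjusted p under 0.05 there were 19 genes of the set (8.48%), against 22.9% of all genes tested. DESeq2 called 2 of the 224, against 1468 of all genes (8.92%), and limma voom called 0, against 128 of all genes (0.775%). Without replicate 3 at 9 weeks and 1%, edgeR called 2 of the 224, against 532 of all genes (3.17%), and without replicate 3 at 27 weeks it called 0, against 25 of all genes. The range at 27 weeks lay wholly above that at 9 weeks for 1 gene of the set (0.446%, against 2.6% of all genes tested) and wholly below it for 2 (0.893%, against 2.86%).

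**Figure D5:**
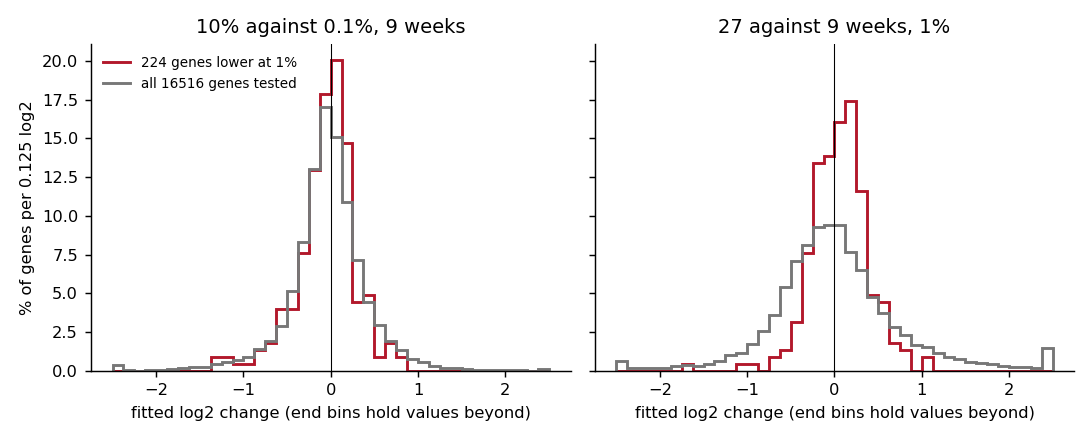
Distribution of the fitted log2 difference over the 224 genes (red) and over all 16516 genes tested (grey), for 10% against 0.1% at 9 weeks (left) and 27 against 9 weeks at 1% (right), as % of genes per bin. The medians of the set are -0.02 and 0.04. On the right, both 1% groups had to lie below the same libraries, with medians less than 1 apart. The limit on the medians left out 8 genes. Nothing is read from the narrow red curve on the right, and the reason for it was not tested.

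Nfu_g_1_021401 had the largest fitted difference between the ages that was negative. It stood at 2.16, 1.22, 0.878, 0.906 and 3.35 CPM at 27 weeks and 1%, against 2.57, 1.94, 13.7, 2.53 and 7.01 CPM at 9 weeks and 1%, with a log2 difference of -1.68 ± 0.51 (SE; edgeR adjusted p = 0.0795). Replicate 3 at 9 weeks was the highest, and the ranges overlapped. Its levels at the other doses were 26.3 ± 8.5 CPM at 0.1% and 41.3 ± 19.32 CPM at 10% (SD, n = 5 each). Nfu_g_1_008662, given above, was second with a log2 difference of -1.003 ± 0.59 (SE; edgeR adjusted p = 0.315). Without replicate 3 at 9 weeks and 1% the difference of Nfu_g_1_008662 was -0.25, and limma voom gave -0.54 with all libraries.

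In the other direction, Nfu_g_1_017159 stood at 0.840, 0.456, 0.267, 1.02 and 0.590 CPM at 27 weeks and 1%, against 0.385, 0.229, 0.520, 0.183 and 0.121 CPM at 9 weeks and 1%, with a log2 difference of 1.09 ± 0.44 (SE; edgeR adjusted p = 0.149), and these values rested on 2 to 27 counts. Nfu_g_1_019680 stood at 11.9, 5.96, 4.35, 4.83 and 6.61 CPM at 27 weeks and 1%, against 1.95, 5.03, 5.99, 2.82 and 0.846 CPM at 9 weeks and 1%, with a log2 difference of 1.01 ± 0.38 (SE; edgeR adjusted p = 0.133). Both genes overlapped between the ages.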

How the data were processed

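Raw counts per gene were deposited by the authors in a table of 15 listed libraries and a second table of 5 libraries, the 9-week 0.1% group. The submitters' processing notes list featureCounts 1.4.6-p4, CASAVA 1.8.2 and STAR 2.4.1d. For the genome build, annotation and strand setting, nothing is given in the sources used here, so counts of overlapping, antisense or near-identical genes are uncertain. Another 10 columns belong to samples outside the list and were not used. Values labelled RPKM were deposited by the authors too and treated as a score, because their divisors repeat every 35 rows instead of following the library; they served for gene lengths (the 20 library totals were found among the divisors within a relative difference of 3.23e-06) and as an alternative.

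Genes were filtered with filterByExpr, scaled by TMM and fitted in edgeR 4.0.16 (R 4.3.3) with 1 mean per group over 20 libraries. Two-sided quasi-likelihood F-tests were adjusted by Benjamini-Hochberg over 16516 genes, with a threshold of 0.05. Standard errors were the absolute log2 difference divided by the square root of F. Replicate numbers follow sample order and only name libraries. Alternatives used DESeq2 1.42.0, limma 3.58.1, other scalings and filters, and each library left out. Levels between genes were compared per kilobase where stated and otherwise as CPM, without regard to length. The genes and the lists were chosen with earlier results of these data known. Named genes were the 2 with the largest fitted difference at 1% and the 2 largest in each direction in the other comparisons; other genes are described without identifier, and the lists of pathways and cell type markers drawn up could not be used without gene names.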

Additional observations from a re-analysis of the deposited data

Results flagged for a closer look

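For the named genes and for 5 measures of the whole libraries, 56 groups of 5 libraries were examined. Of these, 2 held a library far from the rest of its group. Chance gives about 5% of such groups where they are independent and not chosen by their values. The named genes were chosen by differences in these same libraries, so that share is no baseline here. Nfu_g_1_008662 stood at 103 CPM in replicate 2 at 10%, against 45.3 to 59.7 CPM in the other libraries at 10%, a gap of 0.752 of the group's range. Nfu_g_1_015096 stood at 21.5 CPM in replicate 4 at 10%, against 3.54 to 7.80 CPM in the others, a gap of 0.763 of the range. The limit for 5 libraries was 0.71.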

How the results depend on the processing

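The set held between 198 and 245 genes under other pseudocounts, DESeq2 size factors, other minimum levels, other limits on the medians and TMM factors from all genes, the last of these chosen after seeing the data. It held 135 genes, 111 of them of the set, with library totals only, and 66 genes, 58 of them of the set, with the score labelled RPKM, whose divisors run from 0.682 to 1.47 times the correct library total. Leaving out each library in turn gave 225 to 305 genes, lists that the conditions let grow more easily than shrink. The median log2 difference at 1% was always taken over the 224 genes of the main set. It lay between -1.33 and -1.16 with DESeq2 size factors, DESeq2, limma voom and each library left out. It was -1.13 with library totals only, an alternative added after seeing the data, where all 224 genes were again lower at 1%.

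For 10% against 0.1%, 0 of the 224 genes were called under every alternative run, while over all genes the count was 139 with DESeq2, 5 with limma voom and 3 to 37 without one library (37 without replicate 2 at 0.1%). For 27 against 9 weeks, the count over all genes was 135 without the filter, 26 with only these groups in the fit, 1468 with DESeq2, 128 with limma voom and 25 to 532 without one library (25 without replicate 3 at 27 weeks, 532 without replicate 3 at 9 weeks and 1%). Of the 224, DESeq2 called 2, among them Nfu_g_1_021401 (adjusted p = 0.0162), and leaving out one library gave 0 to 2. The causes were not tested. No paired analysis was possible because the replicate numbers follow sample order and the labels pair no libraries. Depth limits the 30 genes with under 10 counts in a library at 1%.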
